A study of Rattus norvegicus and Mus musculus with 12 samples.

Results

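The endoplasmic reticulum (ER) genes for protein folding and collagen secretion were compared between chondrocytes stimulated with IL-1β and control chondrocytes of rat and mouse. They are 38 genes chosen by name, with no measured value in the rule, and fall into 5 classes by role: 15 chaperones and folding enzymes, 8 stress sensors and transcription factors, 4 genes of ER-associated degradation, 7 genes of collagen modification and 4 genes of translocation and the vesicle coat. Of the 38 symbols, 37 had a row among the 19687 genes of the rat table and 38 among the 28603 genes of the mouse table. Mia3 had no row under that symbol in the rat table. Each of the members found passed the filter on low counts.

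The cells were articular chondrocytes at passage 1 from newborn animals, cultured as primary cells. RC and RM were from Sprague–Dawley rats, and MC and MM from mice whose labels read C57BL/6, C57BL/7 and C57BL/8 for MC and C57BL/7, C57BL/8 and C57BL/9 for MM, where the methods name C57BL/6 for all. RM and MM, the model groups, received the inflammatory cytokine IL-1β at 20 ng/ml over 24 h, and RC and MC received none. No genetic change is named for any group, and each group had 3 libraries (RC1 to RC3 and so on), described as independent samples without saying how many animals each held.

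Newly made secreted proteins enter the ER through a translocon, where chaperones and disulfide isomerases fold them. When unfolded protein builds up, the sensors ATF6, IRE1 (gene Ern1) and PERK (gene Eif2ak3) switch on transcription factors that raise chaperone and degradation genes, a program called the unfolded protein response. Procollagen, which chondrocytes make in large amounts, also needs prolyl and lysyl hydroxylation, the collagen chaperone HSP47 (gene Serpinh1) and large COPII-coated carriers to leave the ER.

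With IL-1β, 9 members fell in both species (Eif2ak3, Ddit3, Creb3l1, Creb3l2, Herpud1, Sel1l, Serpinh1, Sec61b and Sec24d) and 2 rose in both (P4ha2 and Plod2). Called in opposite directions were 6 members. P4ha3 was higher in rat and lower in mouse, and Atf6, Ern1, Atf4, Edem1 and Plod3 were lower in rat and higher in mouse. With library size alone, Edem1 turned to lower in mouse and Atf6 was not called in rat. The rat calls of Atf6, Edem1, Creb3l2, Sel1l and Sec61b were lost when some single libraries were left out. So was the mouse call of Ddit3 without MM2. Another 5 were called in neither, and the remaining members tested in both were called in 1 species. Over all genes tested, 18.3% were called higher and 16.8% lower in rat, and 37.4% and 37.7% in mouse. How many of all genes fell in both, rose in both or split was not counted. The counts across species therefore have no background of their own. Serpinh1 fell 1.83-fold in rat and 2.51-fold in mouse. P4ha2, a catalytic subunit of prolyl 4-hydroxylase, rose 1.51-fold in rat and 3.08-fold in mouse, and Plod2, a lysyl hydroxylase, rose 1.57-fold and 3.46-fold. The largest split was in P4ha3, which rose 1.41-fold in rat and fell 7.48-fold in mouse. The stress genes Ern1 and Atf4 fell in rat and rose in mouse.

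In rat, 3 members were higher and 15 lower in RM than in RC at an adjusted P under 0.05 (edgeR quasi-likelihood test, Benjamini-Hochberg over 13303 genes), and 19 were not called. These are 8.11% and 40.5% of the 37 members, beside 18.3% and 16.8% of all genes tested. In mouse, 16 members were higher and 16 lower in MM than in MC, and 6 were not called. These are 42.1% and 42.1% of the 38 members, beside 37.4% and 37.7% of the 14774 genes tested, so the mouse shares lay near those of all genes. The median log2 fold change of the members was -0.13 in rat and 0.058 in mouse, against 0.0052 and -0.016 over all genes tested. Cut-offs taken from the methods were a fold change of 0.85, P under 0.05 without adjustment and 1 FPKM or more in some library. The scale of the fold change is not stated there, and it was read here as log2, up or down. Under them, 0 members were higher and 3 lower in rat, where 4.64% and 3.9% of all genes were. The 3 were Ddit3, Creb3l1 and Serpinh1, and DESeq2 also gave 3 in all. At an unadjusted P under 0.05 alone, 3 members were higher by edgeR, P4ha2, P4ha3 and Plod2. In mouse 4 were higher (Ern1, P4ha2, Plod1 and Plod2) and 2 lower (Serpinh1 and P4ha3), where 12.6% and 13% of all genes were.

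The 2 species need to be read on different footings. The spread between replicates, as the biological coefficient of variation, was 0.106 in rat and 0.0318 in mouse, so far smaller changes were called in mouse. Levels below are deposited FPKM, a count scaled by gene length and library total, which holds no correction for composition. Changes are log2 fold changes ± SE of the fit, with 3 libraries a group, and come from the counts after TMM scaling, with factors of 1.10 in MC and 0.905 to 0.911 in MM. With library size alone, mouse members split into 12 higher and 24 lower in place of 16 and 16. Of all mouse genes tested, 25.02% were then higher and 54.67% lower, in place of 37.4% and 37.7%. The split of the members thus moved with that of all genes. The median over all mouse genes was then -0.295 in place of -0.016. A mouse FPKM ratio therefore lies about that much below the fitted change, and small mouse changes depend on the scaling.

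**Figure D1:**
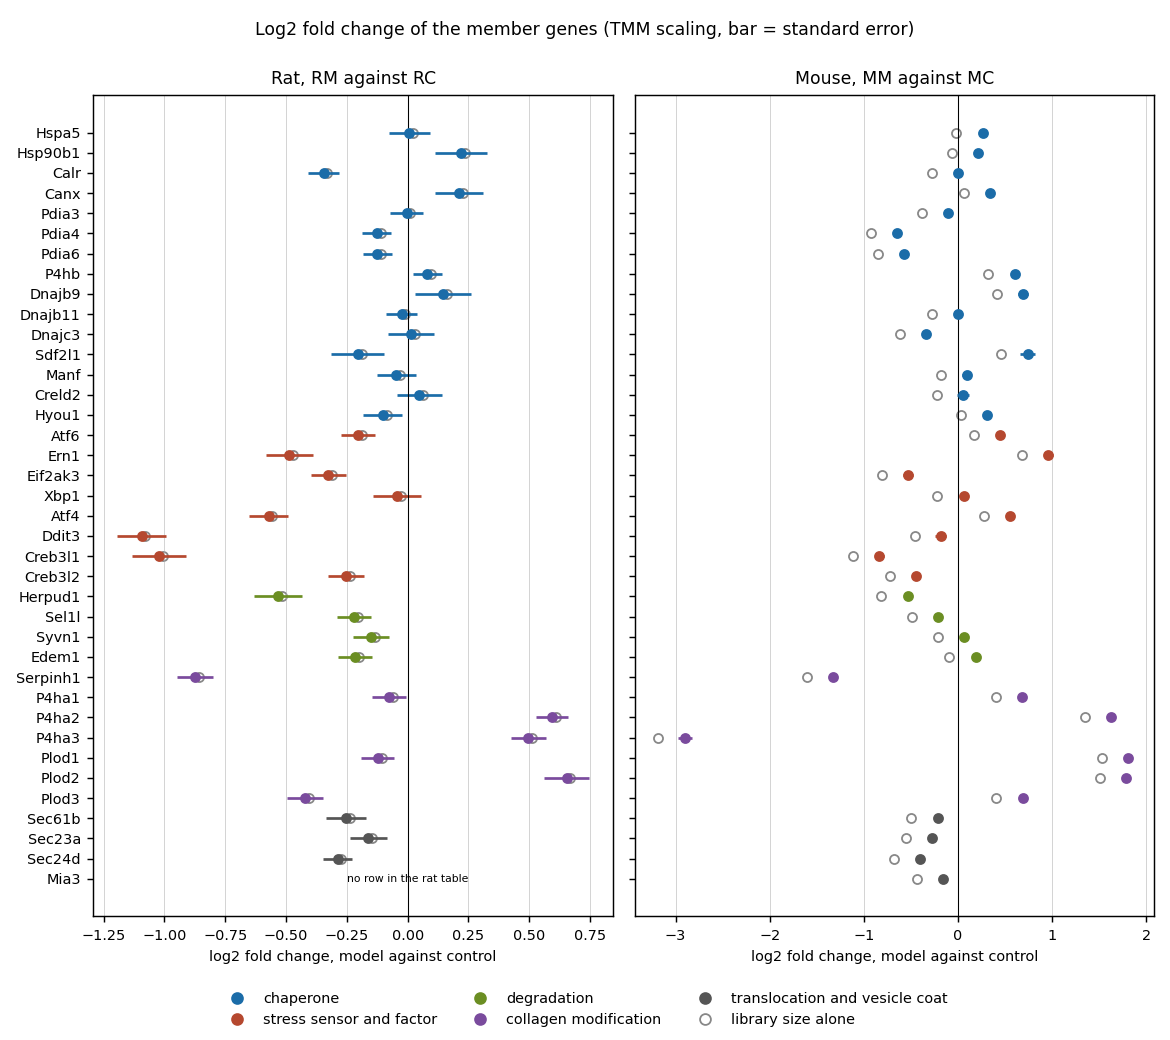
Log2 fold change (horizontal axis) of each member (vertical axis) in rat, RM against RC, and mouse, MM against MC; the 2 panels have different horizontal scales. Filled points are the TMM fit with bars of 1 standard error, coloured by class, and open circles show library size alone. In mouse the open circles lie to the left of the filled points throughout and change side for 9 members, among them Hspa5 at -0.017, whereas Plod1, Plod2 and P4ha2 stay to the right and P4ha3 and Serpinh1 to the left.

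Total counts were 20169272 to 25903459 per rat library and 16841580 to 20048322 per mouse library, and the members took 1.26% to 1.94% of them. Exons of Hsp90b1, Ddit3 and Plod3 overlap other annotated mouse genes over 15.7%, 10.9% and 11.9% of their length, and whether the counting used strand is not given. No pair of replicates agreed within sampling noise. The difference between rat controls was the widest (chi-square per degree of freedom of 27.8 for RC1 and RC2, beside 6.07 to 6.60 within RM and 1.90 to 2.48 in mouse), and RC1 had the highest level of several chaperones. The summed FPKM of 8 chondrocyte markers was 4681 to 5281 in RC and 1854 to 1890 in RM. In mouse it was 1904 to 1959 in MC and 163 to 171 in MM, so the sum was lower with IL-1β in both. The list holds the collagens Col2a1, Col9a1 and Col11a1, and Col2a1 alone averaged 2838 FPKM in RC and 1347 in MC. The sum therefore largely follows the collagens reported below. Macrophage and leukocyte markers were low throughout, with sums of 5.33 to 5.76 in RC, 7.62 to 10.3 in RM, 3.72 to 4.18 in MC and 8.20 to 9.67 in MM, and Itgam was at 0 in every mouse library. Endothelial markers summed to at most 0.793, and muscle markers to 6.44 to 7.31 in RC, 3.72 to 4.45 in RM, 5.52 to 6.40 in MC and 0.421 to 0.888 in MM. Osteoblast markers summed to 1.38 to 1.78 in RC, 0.784 to 1.39 in RM, 12.3 to 12.9 in MC and 0.399 to 0.694 in MM. The fibroblast list, which holds Col1a1, summed to 2765 to 3212 in RC, 1840 to 1962 in RM, 1924 to 1965 in MC and 584 to 594 in MM. The part of these shifts in the results below was not tested, and in bulk RNA fewer cells of a type and less RNA per cell cannot be told apart.

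Many chaperone genes are known to carry an ER stress element in the promoter, bound by ATF6 and XBP1. The element (ERSE) is CCAAT, any 9 bases and CCACG, and a shorter form (ERSE-II) is ATTGG, any 1 base and CCACG. Both were searched on both strands in RefSeq windows of 300 bases (250 before and 50 after the gene start, rat GRCr8), which 32 of the 38 members had. The ERSE was in the windows of 7 members, among them Calr, Creld2, Dnajc3, Hsp90b1, Hspa5 and Xbp1, and in 22 of all 33469 windows, or 0.0657%. The ERSE-II was in those of Dnajb11, Herpud1 and Hyou1, and in 17 windows in all (0.0508%). The UPRE, TGACGTGG, was in Hyou1, where it overlaps an ERSE-II, and in Sec23a, and in 0.595% of all windows. The windows below hold an ERSE or, where marked, an ERSE-II, in genes whose calls were not all alike. The fixed letters of the element are in capitals, 5′ to 3′. The windows of Hyou1 and Sec23a are not shown.
Hspa5, chr3:38452965-38452999, plus strand: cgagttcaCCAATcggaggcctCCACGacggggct
Hsp90b1, chr7:23012443-23012477, minus strand: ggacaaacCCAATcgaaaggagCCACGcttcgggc
Hsp90b1, chr7:23012339-23012373, plus strand: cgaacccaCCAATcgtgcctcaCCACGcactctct
Calr, chr19:40213127-40213161, minus strand: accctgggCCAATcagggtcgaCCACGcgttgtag
Dnajc3, chr15:102432526-102432560, plus strand: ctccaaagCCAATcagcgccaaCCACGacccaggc
Creld2, chr7:121789231-121789265, minus strand: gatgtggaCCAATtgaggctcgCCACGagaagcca
Xbp1, chr14:84604550-84604584, plus strand: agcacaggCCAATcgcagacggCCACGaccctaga
Herpud1 (ERSE-II), chr19:10614813-10614839, minus strand: gggcgctgATTGGgCCACGttgggcac
Dnajb11 (ERSE-II), chr11:91672792-91672818, minus strand: aggcggcgATTGGcCCACGcctggctg

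Of the 6 genes shown with an ERSE in this window, Calr was lower in rat and the other 5 were not called. Mouse promoters were not searched, so the mouse calls here are those of the genes with the same symbol. In mouse Hspa5 and Hsp90b1 were higher, Dnajc3 was lower, and Calr, Creld2 and Xbp1 were not called. For Hspa5 and Hsp90b1 the direction turned with library size alone. Of the 3 with an ERSE-II, Herpud1 was lower in both species, Hyou1 was higher in mouse and not called in rat, and Dnajb11 was called in neither.

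Most chaperones were not called in rat, where 1 of 15 was lower and the class median was -0.0041. In mouse 7 were higher and 4 lower, with a median of 0.093. The rat shares are 0% higher and 6.67% lower, beside 18.3% and 16.8% of all genes tested. The mouse shares are 46.7% and 26.7%, beside 37.4% and 37.7%. Hspa5, which encodes the main ER chaperone BiP and is the usual gauge of ER stress, had 569, 486 and 501 FPKM in RC and 480.2, 577 and 522 in RM, and the groups overlapped. Its log2 fold change in rat was 0.0061 ± 0.084, adjusted P = 0.966 by edgeR. In mouse Hspa5 had 245, 235 and 234 FPKM in MC and 235, 234 and 238 in MM, levels that overlapped, while the fitted change was 0.26 ± 0.026 and turned to -0.017 with library size alone. Hsp90b1, the ER form of the chaperone HSP90, went from 514, 372 and 422 FPKM to 491, 558 and 489.6 in rat, where RC1 lay within the RM range and the change of 0.22 ± 0.11 was not called (adjusted P = 0.142, edgeR). In mouse it was 143, 148 and 144 FPKM in MC and 141, 138 and 138 in MM, with a fitted change of 0.21 ± 0.028 that turned to -0.068 with library size alone.

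Calr and Canx encode lectin chaperones that hold newly made glycoproteins, one soluble and one in the membrane. Calr fell in rat, from 1255, 1299 and 1204 FPKM in RC to 942, 1065 and 984 in RM, with no overlap (log2 fold change -0.35 ± 0.065, adjusted P = 0.0022, edgeR). In mouse Calr had 462, 452 and 463 FPKM in MC and 369.7, 390.0 and 379 in MM, and the fitted change was 0.0046 ± 0.026. Canx had 208, 159 and 169 FPKM in RC and 196, 226 and 207 in RM, a change of 0.21 ± 0.099 that was not called. It rose in mouse, from 108, 110.4 and 109 FPKM to 114, 114 and 114, by 0.34 ± 0.028 on the log2 scale, and by 0.060 with library size alone. Within a library, where scaling cancels, Canx was 14.3 ± 2.16 FPKM per 100 FPKM of Calr in RC and 21.01 ± 0.223 in RM, and 23.8 ± 0.533 in MC and 30.0 ± 0.719 in MM (SD, n = 3), so the ratio was higher in all 3 model libraries of each species. The exact permutation test gave 0.1 in each species, the smallest P that 3 against 3 allow. The ratio was chosen after the values were seen, so the test adds no support of its own.

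Among the disulfide isomerases, Pdia4 and Pdia6 fell in mouse while P4hb rose. Pdia4 went from 129.7, 133 and 135 FPKM in MC to 68.2, 71.6 and 69.5 in MM, a change of -0.65 ± 0.033 with adjusted P = 4.58e-27 (edgeR). Pdia6 went from 163, 164 and 159 FPKM to 90.9, 91.2 and 87.7, a change of -0.57 ± 0.029. Both were also lower in each RM library than in each RC library, but by little, at -0.13 ± 0.059 and -0.12 ± 0.061, and were not called in rat. P4hb, the isomerase that is also the second subunit of prolyl 4-hydroxylase, rose from 535, 514 and 531 FPKM in MC to 651, 664 and 659 in MM, by 0.60 ± 0.025 on the log2 scale with adjusted P = 9.10e-32 (edgeR). In rat it had 642, 711 and 696 FPKM in RC and 741, 714 and 735 in RM, a change of 0.081 ± 0.060 that was not called. Pdia3, which works with the lectin chaperones, changed by -0.0041 ± 0.067 in rat, not called, and by -0.10 ± 0.026 in mouse, called lower.

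The co-chaperones of BiP also parted in mouse. Dnajb9, a J-domain partner, rose from 14.9, 14.9 and 14.7 FPKM to 19.2, 19.6 and 20.6, by 0.69 ± 0.055, and Sdf2l1, which acts in the BiP complex, rose from 17.3, 15.4 and 14.6 to 20.2, 23.5 and 21.3, by 0.74 ± 0.082. Dnajc3, another J-domain partner, fell from 28.9, 27.4 and 30.0 FPKM to 18.6, 17.9 and 19.8, by 1.26-fold. Hyou1, a nucleotide exchange factor for BiP, was called higher in mouse at 0.31 ± 0.034, but its FPKM overlapped, with 28.1, 27.8 and 27.3 in MC and 27.7, 29.3 and 28.0 in MM, and it was not called with library size alone. In rat these 4 changed by -0.21 to 0.14 and none was called. Dnajb11, Manf and Creld2 were called in neither species, with changes of -0.046 to 0.048 in rat and 0.0039 to 0.093 in mouse. The rat values depend on RC1. Without RC1, Canx, Dnajb9 and Hsp90b1 were called higher, at 0.32, 0.27 and 0.34, and Sdf2l1 lower at -0.29 (edgeR). Without MM1, Manf was called higher in mouse, at 0.11.

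Of the 8 stress sensors and factors, 7 fell in rat, with a class median of -0.41, whereas in mouse 3 rose and 4 fell. The rat share lower is 87.5%, beside 16.8% of all genes tested. The mouse shares are 37.5% higher and 50% lower, beside 37.4% and 37.7%, so the share higher lay near that of all genes. Ern1, which encodes the sensor IRE1 that splices Xbp1 RNA, had 6.32, 6.12 and 5.09 FPKM in RC and 4.06, 4.08 and 4.52 in RM, and 7.93, 7.17 and 7.55 in MC and 12.04, 12.3 and 11.95 in MM. Each RM library was below each RC library, and each MM library above each MC library. The changes were -0.49 ± 0.097 in rat (adjusted P = 0.00317, edgeR) and 0.96 ± 0.044 in mouse (adjusted P = 5.11e-29). Atf6, the sensor that is itself cleaved into a transcription factor, was 33.5, 32.7 and 31.5 FPKM in RC, 26.9, 29.7 and 29.1 in RM, 11.1, 10.6 and 11.2 in MC and 12.7, 12.1 and 12.1 in MM, with changes of -0.21 ± 0.070 and 0.45 ± 0.040. Eif2ak3, the kinase that slows translation under stress, fell in both species, from 17.0, 16.9 and 15.6 FPKM (RC) to 12.9, 13.7 and 13.4 (RM) and from 11.4, 11.6 and 10.7 (MC) to 6.46, 6.29 and 6.45 (MM), with changes of -0.33 ± 0.073 and -0.53 ± 0.052.

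Below the sensors, Atf4 and Ddit3 parted in mouse. Atf4, a factor for amino acid and stress genes that is set largely at translation, had 313, 321 and 313 FPKM in RC and 188, 229.9 and 226 in RM, a fall of 1.49-fold (adjusted P = 3.63e-04, edgeR). In mouse it rose from 137, 134 and 137 FPKM to 167, 164 and 162, 1.47-fold (adjusted P = 1.51e-25). Ddit3, the factor CHOP of the late, death-linked phase of the response, fell from 59.8, 54.3 and 62.0 FPKM to 24.3, 31.1 and 27.8 in rat, 2.13-fold (adjusted P = 1.97e-05). In mouse it fell from 26.6, 26.7 and 27.4 FPKM to 19.8, 18.6 and 20.2, a fitted change of -0.18 ± 0.059 (adjusted P = 0.0043) that was not called without MM2. Within a library, Ddit3 was 18.6 ± 1.53 FPKM per 100 FPKM of Atf4 in RC and 12.9 ± 0.622 in RM, and 19.8 ± 0.334 in MC and 11.9 ± 0.595 in MM (SD, n = 3; exact permutation P of 0.1, the smallest possible). That ratio, which was also chosen after the values were seen, was lower in each model library of both species.

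Creb3l1 and Creb3l2 encode membrane-bound factors that are known to drive secretory genes in bone and cartilage. Creb3l1 fell from 82.1, 95.1 and 83.3 FPKM (RC) to 35.6, 46.1 and 47.9 (RM), 2.03-fold, and from 41.4, 39.7 and 42.0 (MC) to 19.2, 19.2 and 18.5 (MM), 1.79-fold (adjusted P = 6.46e-05 and 1.16e-25, edgeR). Creb3l2 fell from 61.8, 72.1 and 66.9 FPKM (RC) to 55.8, 55.9 and 58.7 (RM) and from 24.6, 24.9 and 25.4 (MC) to 15.1, 14.9 and 15.4 (MM), with changes of -0.25 ± 0.074 and -0.44 ± 0.036. Xbp1 was called in neither species, at 86.4, 106 and 104 FPKM in RC and 87.0, 100.1 and 104 in RM, and 35.8, 35.6 and 33.4 in MC and 30.3, 30.4 and 29.3 in MM. Counts per gene do not separate the spliced from the unspliced Xbp1 RNA.

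**Figure D2:**
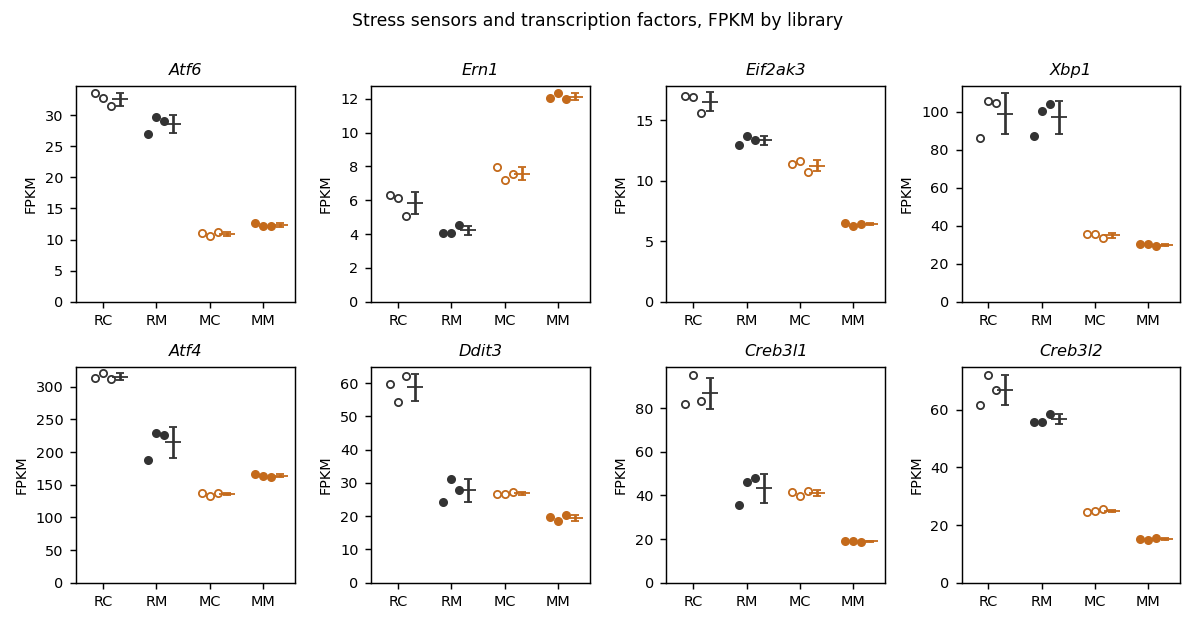
FPKM (vertical axes, starting at 0) of the 8 stress sensors and factors in each library of RC, RM, MC and MM, with open circles for control and filled circles for model libraries; horizontal marks with bars are the mean ± SD of 3 libraries. Ern1, Atf6 and Atf4 lie lower in RM than in RC and higher in MM than in MC, and Ddit3 and Creb3l1 lie lower in both model groups. For Xbp1 the rat groups overlap, and MM lies below MC in FPKM although the fitted change was 0.061 ± 0.041 after TMM scaling.

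In ER-associated degradation, Herpud1 and Sel1l fell in both species. Herpud1, an ER membrane protein that helps assemble the degradation complex, had 75.8, 88.9 and 83.0 FPKM in RC, 50.3, 58.0 and 64.6 in RM, 55.7, 53.5 and 57.4 in MC and 29.7, 32.6 and 32.5 in MM, so that no model library reached a control library. The changes were -0.53 ± 0.099 in rat (adjusted P = 0.00201, edgeR) and -0.54 ± 0.042 in mouse (adjusted P = 5.72e-18). Sel1l, the scaffold of the ubiquitin ligase HRD1, changed by -0.22 ± 0.069 and -0.21 ± 0.032. Syvn1, which encodes HRD1 itself, was called in neither species, at -0.15 ± 0.074 and 0.062 ± 0.044. Edem1, a lectin that hands misfolded glycoproteins on, fell in rat from 42.6, 45.9 and 43.5 FPKM to 36.6, 38.9 and 39.4 and had 22.5, 22.8 and 22.2 in MC and 20.8, 20.8 and 21.7 in MM, where a fitted rise of 0.19 ± 0.037 turned to -0.094 with library size alone.

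Several of the smaller rat calls lay close to the threshold and were lost on leaving out any of several libraries. Their values kept their sign, as in Edem1 at -0.25 to -0.18 over all alternatives. Atf6, Creb3l2 and Edem1 were each not called without RC2, RC3, RM1, RM2 or RM3, Sel1l without RC2, RM1, RM2 or RM3, and Sec61b without RC3, RM1, RM2 or RM3 (edgeR). The call of Atf6 was also lost with library size alone, under both limma settings, with no filter on low counts and with the replicate number as a block, at an adjusted P of 0.0545 to 0.0775, and those of Edem1 and Sel1l with the block (0.0599 and 0.0504). Without RC1, Syvn1 was called lower, at -0.19.

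Collagen modification held the largest changes in mouse. In rat 3 of 7 rose and 2 fell, and in mouse 5 rose and 2 fell. The rat shares are 42.9% and 28.6%, beside 18.3% and 16.8% of all genes tested. The mouse shares are 71.4% and 28.6%, beside 37.4% and 37.7%. Serpinh1, the collagen-specific chaperone (GRCm38 chr7:99345376-99353239), was the member with the highest FPKM, a level per length, in the controls of both species. It had 1554, 1739 and 1569 FPKM in RC and 811, 929.9 and 942 in RM, and 1014, 997 and 973 in MC and 324, 323 and 333 in MM. No model library came near its controls, and the changes were -0.87 ± 0.075 (adjusted P = 1.19e-05, edgeR) and -1.33 ± 0.025 (adjusted P = 5.97e-50). Serpinh1 per 100 FPKM of P4hb was 237 ± 10.4 in RC, 123 ± 11.5 in RM, 189 ± 5.44 in MC and 49.7 ± 1.01 in MM (SD, n = 3).

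P4ha1, P4ha2 and P4ha3 encode alternative catalytic subunits of prolyl 4-hydroxylase, which makes the hydroxyproline that keeps the triple helix stable. P4ha1, the most abundant of the 3, had 379.6, 333 and 345 FPKM in RC and 332, 355 and 326 in RM and was not called in rat (-0.077 ± 0.070). In mouse it rose from 118, 118 and 117 FPKM to 153, 158 and 155, 1.61-fold (adjusted P = 5.33e-32, edgeR). P4ha2 (GRCm38 chr11:54100095-54131665) rose in both, from 61.0, 66.4 and 61.7 FPKM (RC) to 93.6, 97.8 and 97.0 (RM) and from 35.2, 33.1 and 35.3 (MC) to 83.2, 89.8 and 90.4 (MM). Every model library exceeded every control library, with changes of 0.59 ± 0.066 (adjusted P = 7.62e-05) and 1.62 ± 0.032 (adjusted P = 5.28e-49).

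P4ha3 (GRCm38 chr7:100285520-100319699) moved in opposite directions. It rose in rat from 48.0, 51.6 and 53.7 FPKM in RC to 74.8, 71.4 and 72.4 in RM, a change of 0.50 ± 0.072 (adjusted P = 3.99e-04, edgeR). In mouse it fell from 23.4, 24.1 and 23.9 FPKM in MC to 2.26, 2.69 and 2.96 in MM, on 3876 counts over the MC libraries and 469 over the MM libraries, a change of -2.90 ± 0.073 (adjusted P = 2.18e-43). The groups were far apart in both species and both calls stood under each alternative. As a share of the summed FPKM of P4ha1 to P4ha3 within each library, P4ha3 went from 10.97% ± 1.01 in RC to 14.4% ± 0.690 in RM, and from 13.5% ± 0.248 in MC to 1.07% ± 0.122 in MM. P4ha2 went from 13.5% ± 1.13 in RC to 19.0% ± 0.531 in RM, and from 19.7% ± 0.632 in MC to 35.7% ± 0.760 in MM (SD, n = 3). The MM libraries thus held almost no P4ha3 in this family.

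Plod1, Plod2 and Plod3 encode lysyl hydroxylases, which prepare the lysines that later form collagen cross-links, and Plod3 also adds sugars to them. Plod1 (GRCm38 chr4:147909753-147936767), which acts on the helix, had 125, 142 and 125 FPKM in RC and 120.3, 119.7 and 124 in RM and was not called in rat (-0.12 ± 0.069). In mouse it rose from 46.8, 48.6 and 48.9 FPKM to 139, 137 and 141, 3.50-fold (adjusted P = 7.52e-55, edgeR), which with that of Plod2 was the largest rise among the members. Plod2 (GRCm38 chr9:92542223-92608428), which acts on the chain ends, rose from 169.8, 133 and 145 FPKM (RC) to 247, 248 and 218 (RM) and from 45.9, 47.2 and 48.8 (MC) to 133, 133 and 138 (MM), by 0.65 ± 0.094 (adjusted P = 3.83e-04) and 1.79 ± 0.030 (adjusted P = 1.53e-53). Every model library was above every control library in both. Plod3 fell in rat from 56.3, 64.5 and 56.5 FPKM to 45.5, 44.1 and 44.3, a change of -0.42 ± 0.075, and rose in mouse from 39.8, 40.1 and 39.9 to 52.2, 52.7 and 54.1, a change of 0.69 ± 0.033.

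Within each library, the Plod2 share of the summed FPKM of Plod1 to Plod3 went from 44.0% ± 4.54 in RC to 58.8% ± 2.11 in RM, and from 34.9% ± 0.433 in MC to 41.3% ± 0.135 in MM (SD, n = 3). Plod1 went from 38.6% ± 3.06 in RC to 30.1% ± 1.75 in RM, and from 35.5% ± 0.232 in MC to 42.5% ± 0.220 in MM. The share of Plod3 was lower in the model group of both species, at 17.4% ± 1.48 and 11.1% ± 0.386 in RC and RM and 29.5% ± 0.517 and 16.2% ± 0.0953 in MC and MM. None of these 6 shares per species overlapped between the groups, with the 3 of the P4ha family included, and each exact permutation P was 0.1, the smallest possible. These ratios within a library, and those of the other classes above, were chosen after the values were seen.

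**Figure D3:**
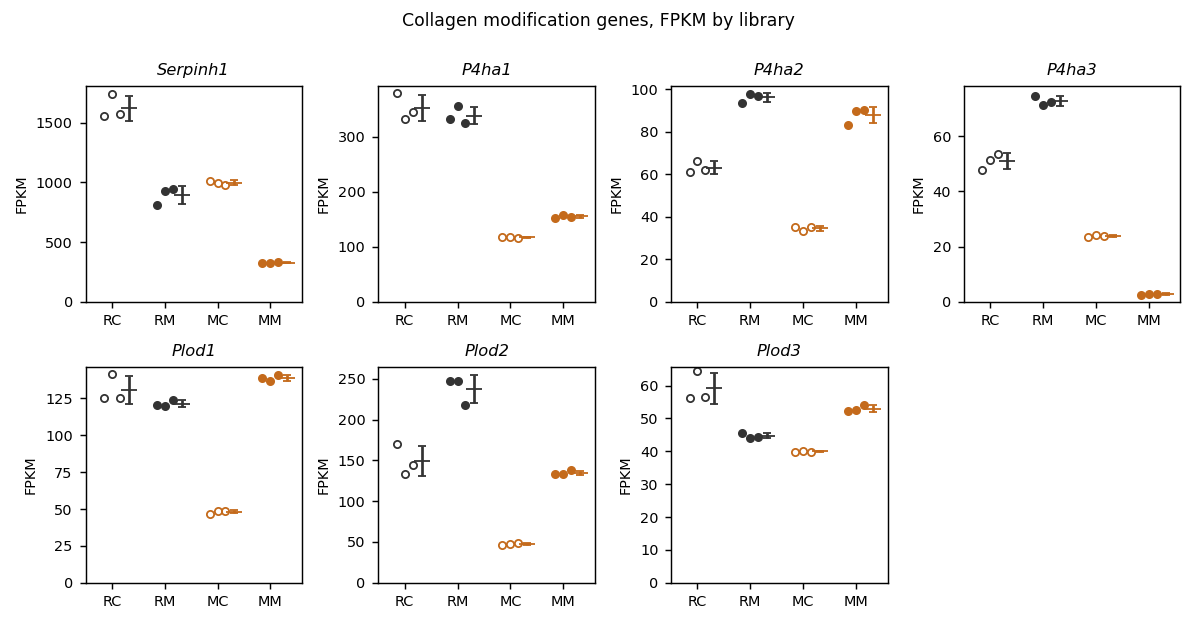
FPKM (vertical axes, starting at 0) of the 7 collagen modification genes in each library of RC, RM, MC and MM, with open circles for control and filled circles for model libraries; horizontal marks with bars are the mean ± SD of 3 libraries. Serpinh1 is lower and P4ha2 and Plod2 are higher in both model groups, Plod1 and P4ha1 are higher in MM than in MC, and P4ha3 is higher in RM and between 2.26 and 2.96 in MM.

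**Figure D4:**
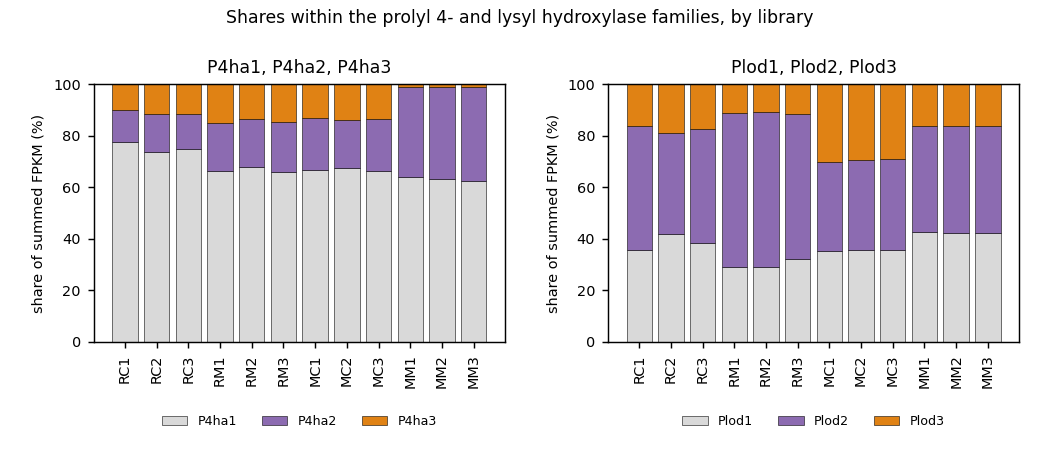
Share of each gene in the summed FPKM of its family (vertical axis, percent), in each of the 12 libraries, for the prolyl 4-hydroxylase subunits (left) and the lysyl hydroxylases (right). The P4ha3 share is a mean of 1.07% in MM and 10.97% to 14.4% in the other groups, and the Plod2 share is largest in RM at 58.8%.

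Of the genes of translocation and the vesicle coat, 2 of 3 fell in rat and 4 of 4 in mouse. Over all genes tested, 16.8% were lower in rat and 37.7% in mouse, and the class is small. Sec24d, a COPII subunit that selects cargo, fell from 107, 114 and 112 FPKM (RC) to 91.1, 92.2 and 92.2 (RM) and from 46.3, 45.7 and 46.8 (MC) to 28.3, 29.2 and 28.9 (MM), with changes of -0.29 ± 0.061 and -0.41 ± 0.032 (adjusted P = 0.00444 and 8.68e-18, edgeR). Sec61b, a subunit of the translocon, fell in both, with changes of -0.25 ± 0.080 and -0.22 ± 0.044. Sec23a, the inner COPII subunit, had 53.1, 46.8 and 47.3 FPKM in RC and 43.0, 46.7 and 43.4 in RM, was not called in rat and fell in mouse, with a change of -0.27 ± 0.036. Mia3, which encodes the procollagen export receptor TANGO1, fell in mouse from 25.8, 27.4 and 28.2 FPKM to 20.8, 20.5 and 18.7 (-0.16 ± 0.043).

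The difference between the species was tested directly, as mouse change less rat change in a joint fit, where the median over all genes was -0.030. Of 37 members, 24 differed at an adjusted P under 0.05 (edgeR), or 64.9%, beside 63.8% of all 10912 genes tested, so the members differed about as often as genes at large. The change was more positive in mouse for 17 and more positive in rat for 7. It differed most for P4ha3 (-3.40, SE 0.11), Plod1 (1.93, SE 0.074), Ern1 (1.45, SE 0.11), Plod2 (1.14, SE 0.10), Atf4 (1.12, SE 0.088), Plod3 (1.11, SE 0.077) and P4ha2 (1.03, SE 0.074). So for Plod2 and P4ha2 the rise was shared but larger in mouse. For Herpud1, Sel1l and Creb3l1, which fell in both, the difference was -0.0016 (SE 0.11), 0.0088 (SE 0.072) and 0.19 (SE 0.13) and was not called. With library size alone the difference was called for Herpud1 at -0.30 (adjusted P = 0.0286, edgeR) and for Sel1l at -0.29 (adjusted P = 0.00209). It was then also called for Hsp90b1, Pdia3, Sec23a and Sec24d, at -0.30 to -0.41. The same held for Creld2, Dnajb11 and Sec61b, at -0.29, -0.27 and -0.26, where the sign turned. The fits assume 1 spread for both species, and a fit with a separate weight for each species also called 24.

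**Figure D5:**
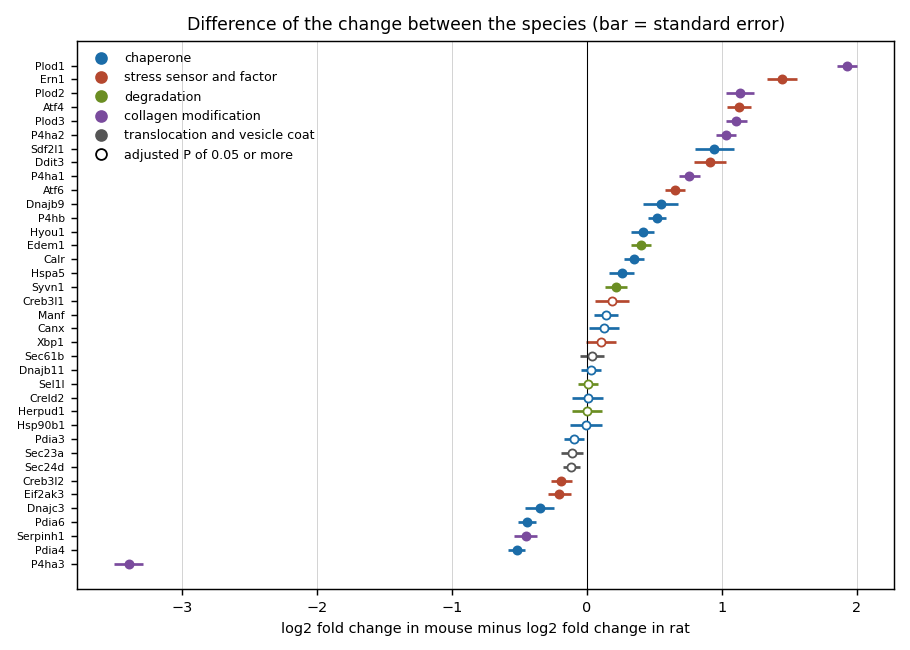
Log2 fold change in mouse minus that in rat (horizontal axis) for the 37 members tested in both species (vertical axis, ordered by value), with bars of 1 standard error. Filled points passed an adjusted P under 0.05 and open points did not; colours give the class. P4ha3 at -3.40 lies apart from the other members, and 4 of the 6 largest positive values are hydroxylases.

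A list of 97 further genes of the same 5 roles gave the surroundings of the members. In rat 91 were tested, of which 6 were higher and 35 lower, and in mouse 96 were tested, of which 33 were higher and 49 lower. The rat shares are 6.59% and 38.5%, beside 18.3% and 16.8% of all genes tested. The mouse shares are 34.4% and 51.0%, beside 37.4% and 37.7%, so the share higher in mouse lay near that of all genes. The counts by class below stand beside the same shares of all genes. Among the remaining collagen modification genes, 0 of 14 were higher (also 0 at an unadjusted P under 0.05, edgeR) and 12 lower in rat, and 3 of 16 were higher and 13 lower in mouse. Pcolce, an enhancer of procollagen processing, fell in both species (-0.75 in rat and -0.85 in mouse). Tmem38b, an ER cation channel needed for collagen assembly, rose in mouse from 4.86, 3.96 and 4.02 FPKM to 16.2, 18.1 and 16.6, and was not called in rat (-0.12). Pcolce2, with no row under that symbol in the rat table, fell in mouse (-2.84).

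Of the further chaperones, 3 of 19 were higher and 8 lower in rat, and 4 of 21 were higher and 14 lower in mouse. Ero1a, the oxidase that renews the disulfide isomerases, had 26.3, 21.4 and 21.6 FPKM in RC and 44.4, 44.1 and 41.3 in RM, and 26.6, 27.2 and 27.2 in MC and 288, 299 and 285 in MM. It rose in both, 1.85-fold in rat (adjusted P = 4.40e-05, edgeR) and 13.1-fold in mouse (adjusted P = 1.32e-70), with no overlap between the groups. Rcn1, a calcium-binding ER protein, fell in both species (-0.42 in rat and -1.19 in mouse), as did Txndc5, a disulfide isomerase (-0.25 and -0.82). Of 10 further stress genes, 1 was higher and 5 lower in rat, and 6 were higher and 2 lower in mouse. Atf3, a factor downstream of ATF4, had 2.29, 2.50 and 2.34 FPKM in RC and 1.24, 1.27 and 1.49 in RM, and 2.50, 2.34 and 3.10 in MC and 41.7, 41.5 and 42.7 in MM, so that it fell in rat (-0.85) and rose 19.1-fold in mouse. Ppp1r15a, which reverses the translation block of PERK, rose 3.85-fold in mouse and was -0.13 in rat, not called, and Mbtps1, a protease that cleaves ATF6, fell in both (-0.22 and -0.70).

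Of 15 further degradation genes, 0 were higher (0 at an unadjusted P under 0.05) and 2 lower in rat, and 8 were higher and 5 lower in mouse. The named ones, Ube2g2, Ube2j1 and Vcp, changed by 0.73, 0.42 and -0.28 in mouse and were not called in rat. Of the further translocation and coat genes, 2 of 33 were higher and 8 lower in rat, and 12 of 34 were higher and 15 lower in mouse. Lman1, a cargo receptor, and Sec31a, an outer COPII subunit, fell in both species, with changes of -0.28 and -0.26 in rat and of -0.83 and -0.68 in mouse. Spcs3, a signal peptidase subunit, rose in both, by 0.42 and 0.84.

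The collagens, the main cargo of this path, mostly fell. Of 17 collagen genes, 16 were tested in rat, with 0 higher (0 at an unadjusted P under 0.05, edgeR) and 15 lower and a median of -0.89. In mouse 2 were higher and 15 lower, with a median of -1.43. Over all genes tested, 16.8% were lower in rat and 37.7% in mouse. Col2a1, the main cartilage collagen, fell 3.04-fold in rat and 11.9-fold in mouse, and Col1a1 1.86-fold and 2.79-fold. Col5a2 rose 2.25-fold in mouse, from 316, 313 and 309.5 FPKM to 579, 584 and 579, and fell in rat (-0.35). Col3a1 fell in rat (-0.98) and was called higher in mouse at 0.16, although its FPKM was lower in MM (314, 314 and 311) than in MC (345, 339.6 and 333).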

How the data were processed

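RNA was measured by RNA-seq in 12 libraries, 3 in each of RC, RM, MC and MM, with groups taken from the labels. For each species the authors deposited raw counts per gene, without normalization, and FPKM, which they made from the counts. The deposited FPKM of the members equalled the count divided by a whole-number gene length and the column total, within 0.1% for 222 of 222 rat and 228 of 228 mouse values. The submitters' processing notes name HISAT2, HTSeq 0.11.2 and the builds GRCm38 and Rnor_6.0. The sources used here give neither the strand setting nor the annotation release. A shared read between close relatives or overlapping genes can therefore shift a value. Replicates are independent samples per the study's methods, with the number of animals in each not given. P values weigh the group difference against the spread between these libraries. How far that spread reflects differences between animals is not known.

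Counts were tested in R 4.3.3 with edgeR 4.0.16 (filterByExpr, TMM, quasi-likelihood, Benjamini-Hochberg over all genes tested), each species separately. The species difference was fitted over all 4 groups on genes shared by symbol, with TMM factors set within each species. Exact permutation tests were 2-sided. Alternatives used DESeq2 1.42.0, limma 3.58.1 on log2(FPKM + 1) and log2(FPKM + 0.1), library size alone, no filter, a replicate block and leaving out each library. The fits were first run on simulated counts. The members and the lists were chosen with earlier results of these data known. All members are named, and of the 97 further genes the 3 per class with the smallest adjusted P. A further gene with no row of its own was matched by a RefSeq synonym, which found Ero1l (Ero1a) and Ero1lb (Ero1b) in mouse and Srpra (Srpr) in rat. Mouse coordinates are from GENCODE M21 (GRCm38), where 38 of 38 symbols matched and 37 gene lengths equalled those implied by the FPKM within 1 base. Promoters are from RefSeq for rat GRCr8, not the build of the files. One promoter window is not reported here.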

Additional observations from a re-analysis of the deposited data

Results flagged for a closer look

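The change with IL-1β differed between mouse and rat for 24 of the 37 members tested in both, by the test of the difference itself (edgeR, adjusted P under 0.05), beside 63.8% of all genes. Values are log2 fold changes in mouse minus those in rat. Among collagen modification genes they were -3.40 for P4ha3, 1.93 for Plod1, 1.14 for Plod2, 1.11 for Plod3, 1.03 for P4ha2, 0.76 for P4ha1 and -0.45 for Serpinh1. Among stress genes they were 1.45 for Ern1, 1.12 for Atf4, 0.91 for Ddit3, 0.65 for Atf6, -0.20 for Eif2ak3 and -0.19 for Creb3l2. Among chaperones they were 0.94 for Sdf2l1, 0.55 for Dnajb9, -0.52 for Pdia4, 0.52 for P4hb, -0.45 for Pdia6, 0.41 for Hyou1, 0.35 for Calr, -0.35 for Dnajc3 and 0.26 for Hspa5. In degradation they were 0.40 for Edem1 and 0.21 for Syvn1. The calls of Creb3l2, Eif2ak3, Hspa5 and Syvn1 were lost when single libraries were left out. Those of Creb3l2 and Eif2ak3 were also lost with DESeq2, with its size factors, with no filter on low counts and with the replicate number as a block, and that of Hspa5 with the block. With library size alone and under both limma settings, the calls of Calr, Hyou1, Edem1 and Dnajb9 were lost, and those of Hspa5 and Syvn1 turned sign. The rat libraries had the wider spread, and in a fit with a separate weight for each species each of the 37 members kept its call or lack of one.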

How the results depend on the processing

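Called in the same direction under every alternative were 13 of the 18 rat members called (3 higher, 10 lower; 13 alternatives), 27 of the 32 mouse members (12 higher, 15 lower; 13 alternatives) and 16 of the 24 differences between the species (20 alternatives). Counts of calls stayed within 1.5 times the reported ones under each alternative that kept all libraries. With each library left out in turn, the counts were 3 to 6 higher in rat (6 without RC1), 10 to 17 lower in rat, 2 to 3 past the study's cut-offs in rat, 16 to 17 higher and 15 to 16 lower in mouse, 6 to 7 past the cut-offs in mouse and 20 to 26 differences. The shares of all genes were not taken for those runs.

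Reversals occurred in mouse under the 3 settings without a composition factor, which are library size alone, limma on log2(FPKM + 1) and limma on log2(FPKM + 0.1), in this order. The values were -0.017, -0.016 and -0.016 for Hspa5, -0.068, -0.067 and -0.067 for Hsp90b1, -0.27, -0.27 and -0.27 for Calr, -0.28, -0.27 and -0.27 for Dnajb11, -0.19, -0.18 and -0.18 for Manf, -0.22, -0.22 and -0.22 for Creld2, -0.22, -0.21 and -0.22 for Xbp1, -0.22, -0.20 and -0.22 for Syvn1, and -0.094, -0.089 and -0.092 for Edem1. For the species difference they were -0.039, -0.037 and -0.037 for Hspa5, -0.27, -0.26 and -0.27 for Dnajb11, -0.29, -0.27 and -0.28 for Creld2, -0.29, -0.27 and -0.28 for Sel1l, -0.082, -0.077 and -0.083 for Syvn1, and -0.26, -0.25 and -0.26 for Sec61b. Sign changes of values called under neither setting are not counted here.

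Replicate numbers recur in each group but same-numbered libraries did not deviate together (correlations of -0.098 to 0.085 in rat and 0.0012 to 0.015 in mouse), so no pairing was used. With the replicate number as a block, 3 members were higher and 12 lower in rat (3 past the cut-offs), 16 higher and 16 lower in mouse (6 past the cut-offs) and 21 differed between the species. Of all genes tested, 18.3% were then higher and 15.8% lower in rat, and 37.2% and 37.5% in mouse. For the differences that share was not taken.

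Limits are the 3 libraries per group, the wider spread of the rat controls and the choice of scaling in mouse. Depth does not limit the members: P4ha3 in MM, a low value, still rested on 469 counts.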

Other observations

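Ratios within a library need no scaling between libraries, and those here were computed after the values had been seen. The summed FPKM of the 6 hydroxylases P4ha1 to P4ha3 and Plod1 to Plod3 was set against that of the 16 collagens present in both tables. There were 7.13 ± 0.621 FPKM of hydroxylase per 100 of collagen in RC and 15.5 ± 0.631 in RM, and 4.78 ± 0.0172 in MC and 25.2 ± 0.274 in MM (SD, n = 3). Each model library exceeded each control library in both species, with an exact permutation P of 0.1, the smallest that 3 against 3 allow. The ratio also holds the fall of its denominator. Summed collagen FPKM went from 11343 in RC to 5868 in RM, where P4ha1, the largest of the 6 hydroxylases, was not called. In mouse the 17 listed collagens, Col6a3 included, went from 6773 in MC to 2425 in MM. Serpinh1 per 100 FPKM of collagen behaved otherwise, at 14.3 ± 0.0932 in RC and 15.2 ± 1.09 in RM, where the groups overlapped (exact P = 0.4), and 15.3 ± 0.415 in MC and 14.4 ± 0.189 in MM, where they did not (exact P = 0.1). The rat sum counts Col1a2 at only 30.8 to 38.3 FPKM in RC, beside 958 to 967 in MC, and levels depend on the gene model of each species.

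Pdia4 and Pdia6 together were 110 ± 7.35 FPKM per 100 FPKM of Hspa5 in RC and 100 ± 7.37 in RM, which overlapped (exact P = 0.2), and 124 ± 3.89 in MC and 67.8 ± 1.74 in MM, which did not.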
